A study of Mus musculus with 15 samples.

Results

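Neutrophils from tumors (TAN) were set against neutrophils from the bone marrow of naïve mice (NN) on Illumina mouse bead arrays, gene by gene. The comparison took the 11 arrays that the sample titles name as TAN or NN out of the 15 in the series, with 4 TAN and 7 NN. All mice were BALB/c and all cells were defined by the surface protein Ly6G. The TAN came from flank tumors of AB12, a mouse mesothelioma line, taken about 12 to 15 days after injection, and the NN came from mice without a tumor. The labels name no deleted gene and no drug in either group. By the methods, the RNA on each array was pooled from 2 to 4 mice, and the marrow was flushed and spun over a Percoll gradient, while tumors were digested with enzymes, enriched with CD11b beads and sorted for Ly6G. The sample labels give the beads and the sort for every population. The population, the organ and the preparation of the cells therefore cannot be told apart. The other 4 arrays held splenic neutrophils of tumor-bearing mice and were not compared here. They entered the normalization, the probe filter, the choice of the probe for each gene and the estimate of the spread.

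Neutrophils are made in the bone marrow, where precursors fill the granules with antimicrobial proteins in a fixed order: first the azurophil granules with myeloperoxidase and serine proteases, then the specific granules with lactoferrin and cathelicidin, and last the gelatinase granules. Transcription of granule genes ends as the cells mature. Neutrophils that have entered a tissue can transcribe chemokine, cytokine and stress genes. In tumors such cells meet low oxygen, cytokines of the tumor and T cells, and they share the site with macrophages, which express many of the same inducible genes.

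Signals are log2 values after background correction and quantile normalization. Where a gene had several kept probes, the brightest over all arrays stands for it, and differences are TAN minus NN. The words rose and fell are kept for genes with an adjusted p under 0.05 in the limma model across all probes, and SE is the standard error of the log2 difference. A signal counts as above background where it exceeds the signal of 95 in 100 of the probes missing from the table of values that the authors processed. The arrays had a pair of background levels. By linear intensity, the median signal of those missing probes was 110 in NN 6 and 105 in NN 7 and 76.2 to 94.3 in NN 1 to NN 5 and all TAN. Between 13085 and 13754 of the 16316 probes kept were above background in the NN and between 12086 and 13005 in the TAN. Precision is limited by how many arrays there are.

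Most of the genes measured differed between TAN and NN. Of 16316 probes, 5331 (32.7%) were higher and 4742 (29.1%) were lower in TAN. Taken by gene, 6978 of 11075 (63%) were called, with 4081 (36.8%) higher and 2897 (26.2%) lower, and the median difference over all genes was 0.12. The signals of the 4 TAN and the 7 NN did not overlap in 2789 of the 4081 genes that rose and 2100 of the 2897 that fell. These are 25.2% and 19% of all 11075 genes. The change was over 2-fold in 1699 genes that rose and in 1430 that fell (15.3% and 12.9% of all genes). At an unadjusted p under 0.05, 7313 genes passed. Within the arrays of low background 3687 genes rose and 2754 fell. With each array scaled to the median of the kept probes instead, 4746 rose, 2299 fell and the median difference was 0.28, so that all signs below are relative to the quantile scale. Of the 100 genes with the highest mean signal in NN, 69 fell and 12 rose in TAN, with a median difference of -0.94. Of the 100 with the highest mean signal in TAN, 68 rose and 13 fell, with a median of 0.77. Genes picked for a high signal in one group tend by that choice to be lower in the other, so both counts are descriptions. The shares of 36.8% higher and 26.2% lower are the background of every list below. The highest signal of any gene was 16.01, and in 23 genes all NN and in 16 all TAN lay within 0.5 log2 units of it, where a further difference may not show. Among the genes named these are Cd177, Gpx1, Hba-a1, Lcn2, Ltf, Ngp, Pglyrp1 and Retnlg in NN, Ccl4, Cebpb, H2-Ab1, Hdc and Osm in TAN, and Fpr2, Fth1, S100a8 and Tmsb4x in both, and their differences may be understated.

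Among genes above background in at least 1 array of each group, those with the largest rise shared by all TAN were led by chemokines. Ccl4, which attracts monocytes and lymphocytes, had log2 signals of 7.28 to 7.9 (median 7.68) in NN and 15.91, 15.82, 15.95 and 15.88 in TAN. It rose by at least 8.27 on the log2 scale, or 309-fold (SE 0.34, adjusted p = 1.1e-11). Cxcl2, a neutrophil attractant, had 6.65 to 8.28 (median 7.41) in NN and 15.36, 15.19, 15.47 and 15.12 in TAN, and rose 226-fold (SE 0.3, adjusted p = 4.9e-12). Both genes went from the lower part of the scale to near its top, so that the rise of Ccl4 is a lower bound. Hilpda, a lipid droplet protein induced by low oxygen, had 6.92 to 7.62 (median 7.08) in NN and 14.66, 14.89, 14.9 and 15.26 in TAN, a rise of 214-fold (SE 0.41, adjusted p = 2.2e-10). The 4 TAN lay within 1 log2 unit of each other for Ccl4, Cxcl2 and Hilpda. The monocyte attractants Ccl12, Ccl8 and Ccl7 rose 199-fold, 178-fold and 135-fold. In TAN 1 to TAN 4, Ccl12 had 13.83, 14.08, 13.97 and 14.16, Ccl8 had 13.57, 13.97, 14.73 and 13.77 and Ccl7 had 12.98, 13.48, 13.61 and 13.15, and these genes were above background in 3, 6 and 1 of the 7 NN. Cxcl1, a close relative of Cxcl2, rose 178-fold (SE 0.53, adjusted p = 5.8e-09, above background in 2 of 7 NN), and Ccl3, a relative of Ccl4, rose 115-fold (SE 0.43, adjusted p = 1.6e-09).

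**Figure D1:**
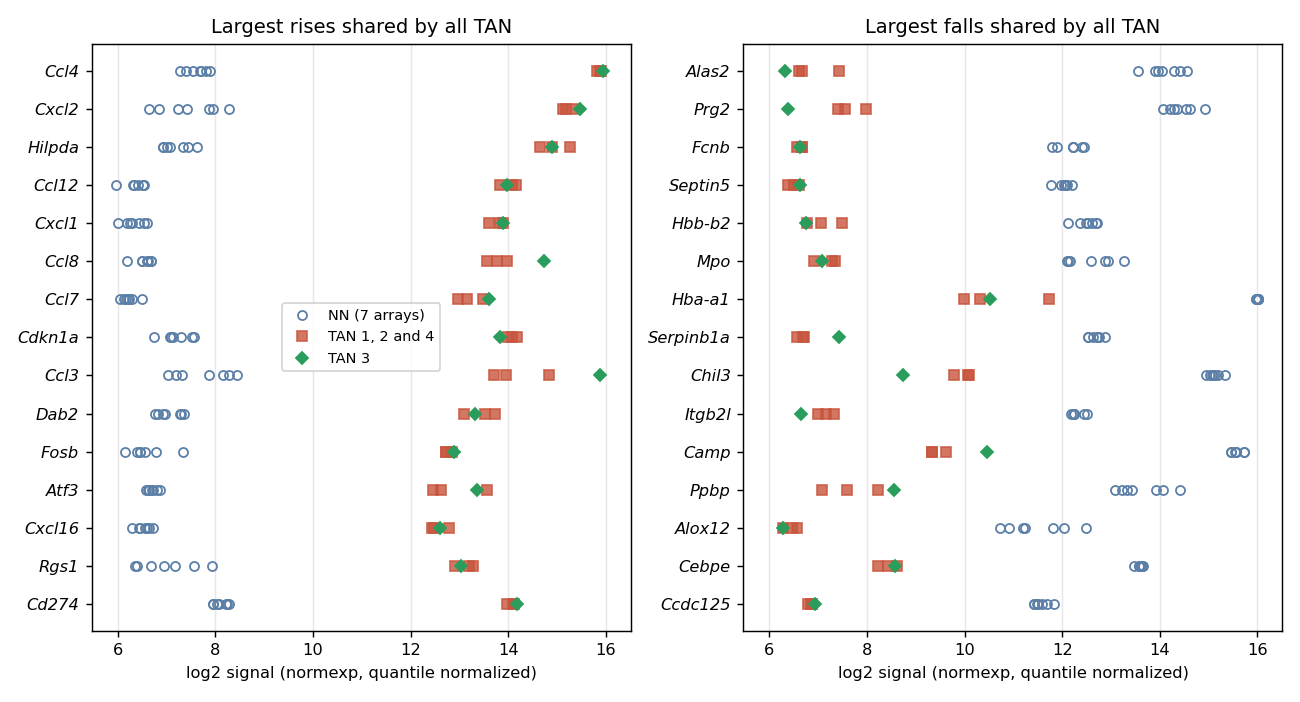
Log2 signal (horizontal axis) of the 15 genes with the largest rise and the 15 with the largest fall shared by all TAN, in every array: open circles are the 7 NN, red squares TAN 1, 2 and 4, green diamonds TAN 3. The TAN and NN do not overlap for any of these genes, and TAN 3 stands above the other TAN in Ccl3 (15.89) and Ccl8 (14.73). Only genes above background in at least 1 array of each group were ranked.

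The other genes of this group had varied roles. Cdkn1a, the gene of the p21 protein that halts the cell cycle, had 6.74 to 7.57 (median 7.13) in NN and 13.99, 14.19, 13.83 and 14.07 in TAN, and rose 113-fold (SE 0.32, adjusted p = 5.0e-11). Fosb, a partner in the AP-1 transcription factor, rose 74.2-fold (SE 0.36, adjusted p = 5.5e-10, above background in 3 of 7 NN) and Atf3, a transcription factor induced by stress, rose 78.6-fold (SE 0.46, adjusted p = 8.9e-09). Dab2, an endocytic adaptor that macrophages express, rose 82.3-fold (SE 0.18, adjusted p = 1.6e-13), and Cxcl16, a chemokine made as a membrane protein, rose 66.1-fold (SE 0.12, adjusted p = 2.0e-15, above background in 4 of 7 NN). Rgs1, which damps signalling from chemokine receptors, rose 68.5-fold (SE 0.4, adjusted p = 2.5e-09, above background in 5 of 7 NN). Cd274 encodes PD-L1, the ligand that restrains T cells through PD-1. It had 7.95 to 8.28 (median 8.08) in NN and 14.09, 14.13, 14.19 and 13.98 in TAN, and rose 63.6-fold (SE 0.16, adjusted p = 6.8e-14). The 4 TAN lay as close together as the NN for Cd274.

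Because the leading genes rose together, the DNA before their start sites is shown for those that the RefSeq table of mouse promoters holds (build GRCm38.p6). Ccl4 is not in that table. The windows are the 250 bases before the start, 5′ to 3′ on the gene's strand, with matches to the NF-κB motif in capitals. The first lies at chr5:90903649-90903898 (+) and the second at chr6:29272238-29272487 (+).
Cxcl2: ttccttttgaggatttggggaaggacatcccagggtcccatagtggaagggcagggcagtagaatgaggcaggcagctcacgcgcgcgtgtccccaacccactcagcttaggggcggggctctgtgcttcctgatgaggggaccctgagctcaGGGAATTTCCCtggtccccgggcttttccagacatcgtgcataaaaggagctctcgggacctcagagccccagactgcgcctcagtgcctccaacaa
Hilpda: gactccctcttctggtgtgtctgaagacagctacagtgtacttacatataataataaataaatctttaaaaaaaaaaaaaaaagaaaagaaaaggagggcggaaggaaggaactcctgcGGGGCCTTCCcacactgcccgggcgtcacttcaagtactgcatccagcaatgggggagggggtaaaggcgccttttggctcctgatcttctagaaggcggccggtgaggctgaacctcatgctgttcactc
The Cxcl2 window held 2 overlapping matches to the NF-κB motif and the Hilpda window held 1. A second, partly overlapping Hilpda window at chr6:29272376-29272625 held 1 match to ACGTG, the core of the sites that hypoxia-inducible factors bind. Among 11 of the 15 risen genes with a window, the NF-κB motif was found in 4 (Cxcl1, Cxcl2, Fosb and Hilpda), ACGTG in 3 (Cxcl1, Dab2 and Hilpda) and the AP-1 motif (TGACTCA or TGAGTCA) in 0, on either strand. Among 10 of the 15 fallen genes with a window, each of the 3 motifs was found in 0. Of all 32817 such windows in the table, from 26994 genes, 7.25% held the NF-κB motif, 16.6% held ACGTG and 4.46% held the AP-1 motif. A risen or fallen gene counted where any of its windows matched, while these shares are per window, so the measures are unlike. A match describes the letters only.

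The largest falls shared by all TAN were of granule proteins and of genes that belong to other marrow cells. They too were ranked among genes above background in at least 1 array of each group. In bulk samples, fewer cells of a type and less RNA per cell cannot be told apart. Camp, which encodes cathelicidin of the specific granules, had 15.45 to 15.73 (median 15.57) in NN and 9.62, 9.34, 10.45 and 9.34 in TAN, and fell by 5.89 (SE 0.18, adjusted p = 3.7e-13). Chil3, a chitinase-like protein abundant in neutrophil precursors, had 14.94 to 15.33 (median 15.08) in NN and 10.06, 9.78, 8.73 and 10.08 in TAN, and fell by 5.45 (SE 0.27, adjusted p = 8.7e-11). Mpo, myeloperoxidase of the azurophil granules, had 12.1 to 13.27 (median 12.58) in NN and 7.28, 7.34, 7.07 and 6.91 in TAN, and fell by 5.43 (SE 0.27, adjusted p = 9.3e-11). Every TAN lay over 4 log2 units below every NN for Camp, Chil3 and Mpo. Serpinb1a, which blocks serine proteases such as elastase, fell 56.8-fold (SE 0.15, adjusted p = 6.3e-14). Cebpe, the transcription factor that switches on the specific granule genes, had 13.47 to 13.65 (median 13.59) in NN and 8.22, 8.61, 8.57 and 8.43 in TAN, and fell by 5.13 (SE 0.14, adjusted p = 6.8e-14). Fcnb, a lectin of the complement system, fell 46.5-fold (SE 0.23, adjusted p = 1.4e-11), and Itgb2l, an integrin chain of maturing neutrophils, fell 38.4-fold (SE 0.14, adjusted p = 5.9e-14). Septin5, a cytoskeletal GTP-binding protein, fell 45.1-fold (SE 0.1, adjusted p = 6.6e-16, above background in 2 of 4 TAN) and Ccdc125, a coiled-coil protein, fell 26.1-fold (SE 0.23, adjusted p = 6.8e-11). Genes of other cells stood beside them. Alas2, the first enzyme of heme synthesis in red cell precursors, had 13.56 to 14.56 (median 14.04) in NN and 6.66, 6.61, 6.32 and 7.43 in TAN, and fell 163-fold (SE 0.27, adjusted p = 2.2e-12, above background in 3 of 4 TAN). Hba-a1 and Hbb-b2, globin genes with near-identical copies that a probe may not tell apart, fell. Hba-a1 had 15.98 to 16.01 in NN, at the top of the scale, so that its fall of at least 41.4-fold (SE 0.39, adjusted p = 7.1e-09) is a lower bound, and its place among the largest falls could be higher. Hbb-b2 differed by -5.49. Prg2, the major basic protein of eosinophils, fell 137-fold (SE 0.4, adjusted p = 3.5e-10, above background in 3 of 4 TAN). Ppbp and Alox12, genes of platelets, fell, with differences of -5.78 and -5.09 (SE 0.26, adjusted p = 1.2e-10, above background in 1 of 4 TAN).

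The 4 TAN were not alike. The root mean square difference over all genes was 0.205 log2 units between TAN 1 and TAN 2, 0.388 between TAN 1 and TAN 4 and 0.355 between TAN 2 and TAN 4. TAN 3 lay 0.889, 0.849 and 0.702 from TAN 1, TAN 2 and TAN 4, while pairs of NN lay 0.202 to 0.365 apart (median 0.242). Every TAN lay farther from the nearest NN than from any other TAN: 1.348 for TAN 1, 1.337 for TAN 2, 1.098 for TAN 3 and 1.271 for TAN 4. TAN 3 was outside the range of the other 3 TAN by over 2-fold in 851 genes (7.68%), above them in 606 and below them in 245. The same count was 0 for TAN 1, 3 for TAN 2 and 3 for TAN 4. TAN 3 was singled out with results of these data known, so that its distance from the others is a description. The genes over 2-fold above the NN mean numbered 2097, 2047, 1314 and 1888 in TAN 1 to TAN 4, and those over 2-fold below it 1632, 1601, 1203 and 1458. In all 4 TAN at once, 974 genes were over 2-fold above and 790 over 2-fold below.

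In a model with separate means, TAN 3 and the mean of TAN 1, 2 and 4 each were set against NN. TAN 3 is 1 array, assumed to vary like the other groups. In TAN 3, 4560 genes were called, and in TAN 1, 2 and 4, 7525. Both were called in the same direction in 3754 genes, with 1997 (18%) higher in both and 1757 (15.9%) lower in both. In TAN 1, 2 and 4 only, 2460 genes (22.2%) were higher and 1087 (9.81%) lower. In TAN 3 only, 212 (1.91%) were higher and 370 (3.34%) lower. The directions were opposite in 224 genes (2.02%), and 2968 were called in neither. Since 3 arrays give a smaller error than 1, a call in TAN 1, 2 and 4 only does not show that TAN 3 differed. In simulated data with a log2 change of 1, 75.5% of changed probes were recovered with 4 TAN and 34.5% with TAN 3 alone. At a log2 change of 2, these were 97% and 86%, and at 4 they were 99.5% and 98.5%. The simulation changed 200 of 16316 probes, while 61.7% were called in the data. Its spread also included that between TAN 3 and the other TAN. Its rates may therefore not carry over to the data.

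**Figure D2:**
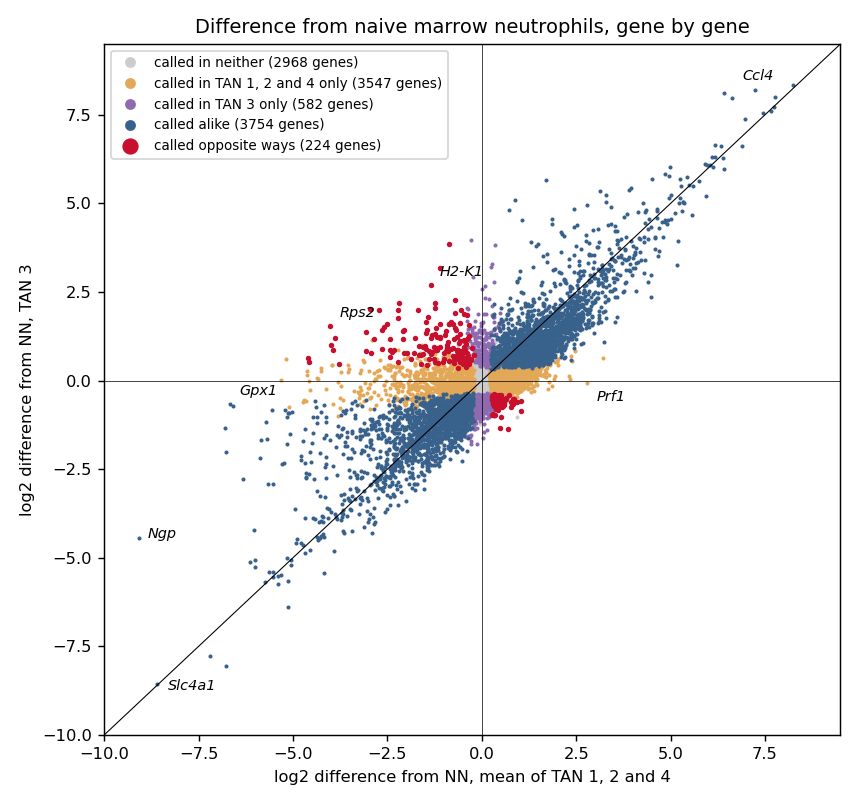
Log2 difference from NN of each of 11075 genes in TAN 3 (vertical axis) against that in the mean of TAN 1, 2 and 4 (horizontal axis), coloured by where it was called. Genes called alike (3754) lie along the diagonal at both ends, while Gpx1 falls far less in TAN 3, and Rps2 and H2-K1 go up in TAN 3 and down in the others.

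The genes where TAN 3 stood farthest above the other TAN were abundant in NN, and several belong to the ribosome. Gpx1, an antioxidant enzyme, had 15.91 to 15.98 (median 15.93) in NN and 9.19, 9.19, 15.28 and 9.45 in TAN. TAN 3 lay just below the NN and the other TAN over 6 log2 units lower. Rps7, a protein of the small ribosomal subunit, had 13.32 to 13.94 (median 13.67) in NN and 8.17, 8.29, 14.29 and 9.01 in TAN, with TAN 3 above every NN. Rps2 and Rps6, of the same subunit, had 7.97, 7.89, 13.49 and 7.97 and 8.03, 8.01, 13.32 and 8.2 in TAN 1 to TAN 4, against 11.57 to 12.24 (median 12.08) and 12.45 to 12.87 (median 12.71) in NN. Both were called higher in TAN 3 and lower in the others. Rpl7a of the large subunit, with 6.57, 6.63, 11.66 and 6.49 (3 of 4 above background), and Tuba1a, a tubulin, with 7.08, 7.3, 12.29 and 7.13, were also called opposite ways, as was the iron carrier Trf, with 7.61, 7.52, 12.68 and 7.92. Ltb, which encodes lymphotoxin beta, had 12.84 to 13.35 (median 13.06) in NN and 6.36, 6.55, 12.38 and 6.59 in TAN (2 of 4 above background), and the histone variant H2az1 had 13.34 to 13.62 (median 13.48) in NN and 6.33, 6.77, 12.13 and 6.89 in TAN (3 of 4 above background). These 2 fell in both parts of the TAN but far less in TAN 3. Rabac1, a binding partner of Rab GTPases, had 7.97, 7.86, 13.51 and 8.7, against 13.03 to 13.89 (median 13.61) in NN. All of these differences rest on 1 array, and 9 of the 10 genes have a single kept probe.

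Among the genes where TAN 3 stood farthest below the other TAN, several lay within the NN range in TAN 3. Prf1, perforin of killer lymphocytes, had 9.1 to 9.82 (median 9.35) in NN and 12.67, 12.39, 9.34 and 11.56 in TAN. TAN 3 lay within the NN and the other TAN above all of them, as was so for Zbtb2. Bola2, which takes part in iron-sulfur protein maturation, had 9.04 to 9.82 (median 9.4) in NN and 12.72, 12.67, 10.05 and 12.52 in TAN, and the transcriptional repressor Zbtb2 had 7.77 to 8.04 (median 7.89) in NN and 10.91, 10.5, 7.97 and 9.37 in TAN. Erich5, Crip2 and Dnajc4 had 13.06, 12.63, 10.51 and 12.33, 10.68, 10.26, 8.37 and 10.14 and 9.73, 9.63, 7.52 and 9.14 in TAN 1 to TAN 4, with TAN 3 inside the NN range for each. The histone gene H4f16 and the transcript 4930519G04Rik rose in both parts, with 10.47, 10.64, 8.4 and 10.5 and 11.12, 10.94, 8.82 and 10.8, the latter above background in 3 of 7 NN. Pi16, a peptidase inhibitor, was called opposite ways, with 13.55, 13.41, 11.27 and 12.98 against 12.41 to 12.91 (median 12.68) in NN, and passed as higher without TAN 3 (0.68, adjusted p = 5.28e-04). Ddx5, an RNA helicase, had 8.88, 8.57, 6.58 and 8.16 and was called in neither.

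Where a gene had several probes, these could be set against each other within an array, each relative to its own level in NN. For an NN array, that level was the mean of the other NN. Among 2956 such genes, probes lay over 4-fold apart in at most 0.0677% in any NN. For TAN 1 to TAN 4 the shares were 22.6%, 22%, 5.48% and 17.5%. The means were 16.9% in TAN and 0.00967% in NN. Because NN is the reference, its arrays lie near 0 by construction and any other group lies above them, so no test of the gap between the groups is given. TAN 1 and TAN 2, with the highest shares, were also the closest pair of TAN. At over 2-fold the means were 39.1% and 0.551%, and among probes above background in at least 4 arrays, over 4-fold, 17.3% and 0.0103%. In 353 of the 2956 genes (11.9%) another probe was called opposite to the one shown. By class, this held for 16% of the genes higher in both parts of the TAN and 6.03% of those lower in both. It held for 24.4% of the genes higher and 15.6% of those lower in TAN 1, 2 and 4 only. It held for 7.46% and 0.775% of those higher and lower in TAN 3 only. Both probes had to be called over all TAN against NN, so that a gene not called there could not count. All 353 genes lie among the 2095 multi-probe genes called there (16.8%). The shares of the classes therefore cannot be set against each other. The part of unequal probes in the differences between TAN and NN was not tested, and genes below with a probe called the other way are marked as such.

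**Figure D3:**
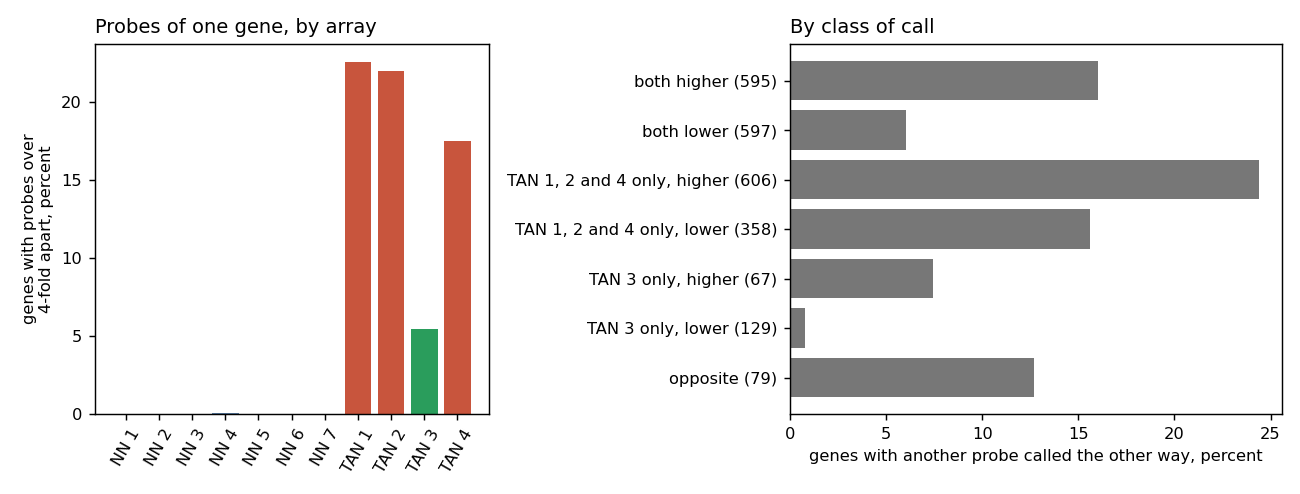
Left, the percentage of the 2956 multi-probe genes with probes over 4-fold apart relative to NN, in each array (blue NN, red TAN, green TAN 3). Right, the percentage of genes with another probe called the other way, by class of call, with the number of genes with several probes in parentheses. On the left, TAN 3, at 5.48%, lies between the NN and the other TAN. On the right, a gene can count only where it was called over all TAN, so the classes are not comparable.

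The label was checked against 21 measured neutrophil markers. Ly6g had no probe among those kept. Of the 21, 4 rose and 14 fell in TAN (median -1.24, against 0.12 over all genes), and all were above background in at least 1 TAN. Some of the most abundant markers stayed near the top of the scale. S100a8, the calprotectin subunit, had 15.76 to 15.91 (median 15.85) in NN and 15.68, 15.76, 15.87 and 15.54 in TAN, and the formyl peptide receptor Fpr2 had 15.83 to 15.94 (median 15.84) in NN and 15.86, 15.75, 15.52 and 15.63 in TAN. S100a9, the other calprotectin subunit, had 15.45 to 15.83 (median 15.72) in NN and 15.56, 15.66, 15.54 and 15.22 in TAN. The groups overlapped for S100a8, S100a9 and Fpr2, and none of them passed the test, but so close to the highest signal a change could not be measured well. Clec4d, a lectin receptor, and Hdc, which makes histamine, rose by 0.92 (SE 0.09, adjusted p = 2.8e-07) and 0.82 (SE 0.1, adjusted p = 3.7e-06). Il1r2, the decoy receptor of interleukin 1, rose by 3.15 (SE 0.2, adjusted p = 2.0e-09). Trem1 rose by 0.66 (SE 0.26, adjusted p = 0.0335, with 1 of its 2 probes called the other way), but was called in TAN 3 only, at 11.6, 11.46, 13.07 and 11.7 in TAN 1 to TAN 4 against 11.13 to 11.5 (median 11.28) in NN. Without TAN 3 its difference was 0.29 (adjusted p = 0.135), and it also missed the threshold without NN 2 (adjusted p = 0.052), NN 3 (0.0535) or NN 5 (0.0553), with the replicate block (0.112) and over the low-background arrays alone (0.0548). Retnlg, a resistin-like protein, fell, as did Lcn2 and Mmp9, the gelatinase (differences of -0.59, -1.24 and -1.3). The receptors Cxcr2, Csf3r and Cxcr4 fell (differences of -0.93, -1.34 and -0.78), and TAN 3 lay within the NN range for Cxcr2 (13.85) and Csf3r (14.35). Itgam, which encodes the CD11b used to enrich the TAN, fell by 2.61 (SE 0.3, adjusted p = 1.6e-06). Cd177 fell by 4.04, and Padi4, the enzyme of histone citrullination, fell by 4.78 (SE 0.25, adjusted p = 2.0e-10, above background in 1 of 4 TAN).

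Granule genes were lower, those of the specific granules most. Of 20 genes listed for the specific granules, 16 fell and 2 rose (median -2.59). Ngp, neutrophilic granule protein, had 15.73 to 15.89 (median 15.81) in NN and 6.4, 6.65, 11.36 and 7.1 in TAN (3 of 4 above background), so that TAN 3 lay more than 4 log2 units above the other TAN and more than 4 below the NN. Olfm4 fell by 5.58 (SE 0.43, adjusted p = 1.4e-08), Mmp8, the neutrophil collagenase, fell by 4.33 (SE 0.18, adjusted p = 1.2e-11) and Ltf, lactoferrin, fell by 3.93 (SE 0.17, adjusted p = 2.0e-11). The list was broad, and the 2 members that rose are not typical granule proteins. Stfa2, a cysteine protease inhibitor, and Arg2, a mitochondrial arginase, rose by 1.55 (SE 0.23, adjusted p = 2.0e-05) and 1.16 (SE 0.12, adjusted p = 6.3e-07). Stfa1, from the same multigene family as Stfa2, had 14.42 to 14.73 (median 14.64) in NN and 14.98, 14.95, 14.47 and 14.48 in TAN 1 to TAN 4 and did not pass. Of 12 azurophil granule genes, 6 fell and 3 rose (median -0.57). Elane, neutrophil elastase, had 10.98 to 12.52 (median 11.57) in NN and 6.82, 6.67, 6.99 and 6.55 in TAN, and fell by 4.84 (SE 0.24, adjusted p = 9.5e-11). Ctsc, which activates the granule serine proteases, and Srgn, the proteoglycan that packs them, rose by 2.9 (SE 0.1, adjusted p = 1.7e-12, above background in 5 of 7 NN) and 2.38 (SE 0.18, adjusted p = 1.5e-08). Of 12 genes of gelatinase granules and secretory vesicles, 6 fell and 2 rose (median -0.54). Itgb2, the integrin chain that pairs with CD11b, had 6.62, 6.66, 9.85 and 7.16 in TAN 1 to TAN 4 against 11.32 to 11.86 (median 11.53) in NN, and Pglyrp1, which binds bacterial peptidoglycan, fell by 1.58 (SE 0.11, adjusted p = 4.2e-09). Cd14, which hands lipopolysaccharide to Toll-like receptor 4, went the other way. It had 9.94 to 10.53 (median 10.08) in NN and 15.22, 15.2, 15.81 and 15.69 in TAN, a rise of 40.8-fold (SE 0.19, adjusted p = 2.1e-12).

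Transcription factors of granulocyte formation divided. Of 14, 9 fell and 4 rose (median -0.89). Besides Cebpe, Ets1 fell by 4.62 (SE 0.35, adjusted p = 1.3e-08) and Klf5 fell by 2.03 (SE 0.22, adjusted p = 8.6e-07). Irf8, which directs precursors to monocytes and dendritic cells, had 8.01 to 8.58 (median 8.36) in NN and 10.67, 10.83, 10.72 and 10.94 in TAN, and rose by 2.46 (SE 0.23, adjusted p = 1.4e-07). Cebpb, the factor of granulocyte formation under stress, had 13.65 to 14.98 (median 14.48) in NN and 15.93, 15.93, 15.98 and 15.97 in TAN, and rose by 1.53 (SE 0.2, adjusted p = 6.3e-06).

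Genes of the cell's machinery for movement and killing were mostly lower. Of 9 genes of the phagocyte NADPH oxidase, which makes superoxide, 8 fell and 1 rose (median -1.02). Ncf1, its cytosolic p47 subunit, had 12.07 to 12.48 (median 12.25) in NN and 8.38, 8.47, 10.06 and 9.27 in TAN, and fell by 3.21 (SE 0.23, adjusted p = 7.9e-09). Rac2, the GTPase of the complex, had 8.43, 8.45, 13.17 and 10.08 in TAN 1 to TAN 4 against 14.56 to 15 (median 14.92) in NN, and Rac1 had 6.38, 6.33, 9.45 and 6.96 (2 of 4 above background) against 9.52 to 10.06 (median 9.83). Of 27 actin cytoskeleton genes, 23 fell and 2 rose (median -1.12). Lcp1, which bundles actin in leukocytes, had 7.46, 6.95, 11.93 and 7.14 against 13.65 to 14.25 (median 13.91) in NN, and the intermediate filament gene Vim had 6.89, 6.99, 11.97 and 7.83 against 12.44 to 13.15 (median 12.73). TAN 3 was the nearest TAN to the NN for Rac2, Rac1, Lcp1 and Vim. Of the 23 genes that fell, 20 were called in both parts of the TAN. Tmsb4x, the actin-binding thymosin, had 15.57 to 15.89 (median 15.84) in NN and 15.8, 15.84, 15.85 and 15.73 in TAN and did not pass. Of 19 genes of Src-family, Syk and phosphatase signalling, 11 fell and 3 rose (median -0.57). The kinase subunit genes Pik3r1 and Pik3cg fell, with differences of -1.69 (SE 0.11, adjusted p = 1.3e-09) and -0.97 (SE 0.14, adjusted p = 1.6e-05). Of 20 G protein regulators, 10 fell and 4 rose (median -0.5), with Grk6, a receptor kinase, at 10.69 to 11.15 (median 10.88) in NN and 6.2, 6.13, 7.02 and 6.34 in TAN (1 of 4 above background). Of 27 Rab GTPases of vesicle traffic, 15 fell and 4 rose (median -0.4). Rab3d, which serves granule release in secretory cells, had 13.23 to 13.8 (median 13.56) in NN and 10.25, 10.21, 9.32 and 9.88 in TAN, and fell by 3.64 (SE 0.17, adjusted p = 4.6e-11).

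**Figure D4:**
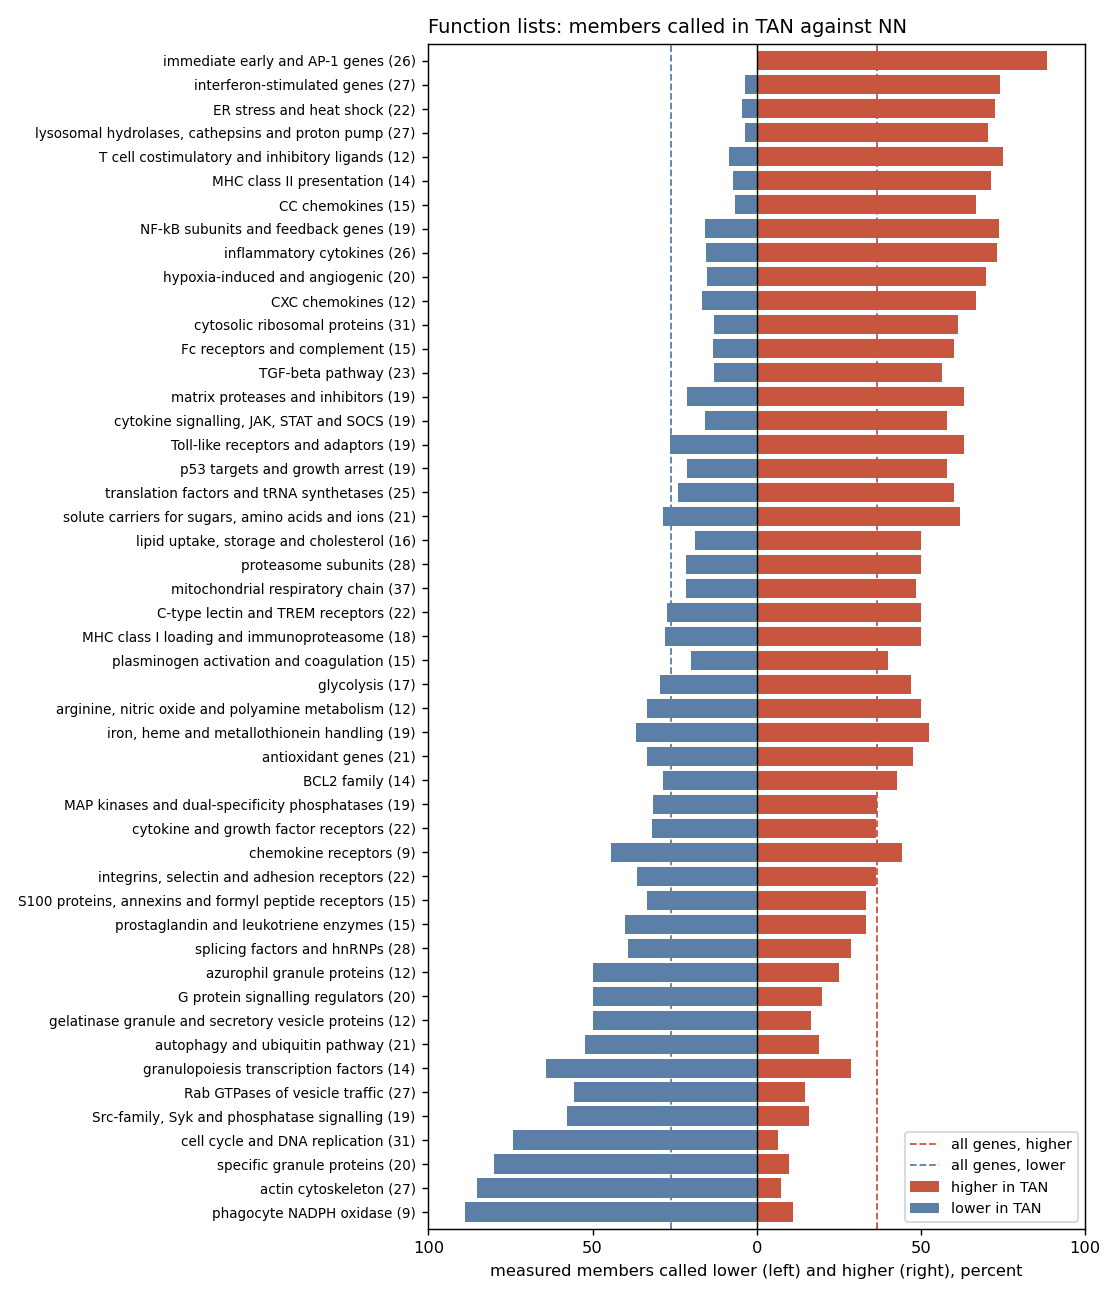
For each function list (number of measured members in parentheses), the percentage of members called higher in TAN (right, red) and called lower (left, blue). Dashed lines give the same over all genes, 36.8% higher and 26.2% lower. Immediate early and interferon genes lie at the top of the plot, and NADPH oxidase, actin and specific granule genes at the bottom.

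Chemokine genes were higher. Of 15 CC chemokines, 10 rose and 1 fell (median 3.75), and all 10 rose in both parts of the TAN with no overlap with NN. Of 12 CXC chemokines, 8 rose and 2 fell (median 2.52), again all 8 in both parts. Over all genes, 2789 of the 4081 that rose did not overlap with NN. The CC chemokine that fell was Ccl6, in TAN 1, 2 and 4 only, with 10.84 to 11.45 (median 11.22) in NN and 8.17, 8.51, 11.6 and 9.78 in TAN. Ccl25, an attractant of thymocytes, had 6.98 to 7.41 (median 7.13) in NN and 7.64, 7.37, 6.89 and 7.39 in TAN and did not pass, but did without TAN 3 (0.32, adjusted p = 0.0113). Ccl17, an attractant of T cells with the receptor CCR4, had no NN above background and rose at least 20.3-fold (adjusted p = 1.2e-09), with 11.28, 11.16, 9.39 and 11.42 in TAN 1 to TAN 4. Pf4, a platelet chemokine that macrophages also make, had 12.24 to 13.36 (median 12.57) in NN and 12.38, 12.94, 12.69 and 12.65 in TAN and did not pass, while Ppbp, also of platelets, and Cxcl12, the factor that holds neutrophils in marrow, fell. Cxcl12 had 10.04 to 12.14 (median 11.6) in NN and 7.31, 6.97, 6.94 and 6.89 in TAN. Among 9 chemokine receptors, 4 rose and 4 fell (44.4% each, median 0.21). Ccrl2, an atypical receptor that binds chemerin, had 7.84 to 9.2 (median 8.61) in NN and 13.33, 13.47, 14.63 and 13.96 in TAN, and rose 38.2-fold (SE 0.29, adjusted p = 3.6e-10). Cx3cr1, a receptor of monocytes and macrophages, rose 9.61-fold (SE 0.34, adjusted p = 5.4e-07). Ackr1, the scavenging chemokine receptor of red cells and venules, was below background in all TAN and fell at least 7.55-fold (adjusted p = 2.0e-12). The mean over the 21 macrophage markers was 8.71 to 9.32 in NN and 10.56, 10.85, 11.81 and 11.22 in TAN 1 to TAN 4. The part of such cells in the rise of chemokine genes was not tested.

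Cytokine genes rose as well. Of 26 inflammatory cytokines, 19 rose and 4 fell (median 1.12). Csf1, the growth factor of macrophages, had 6.49 to 7.22 (median 6.84) in NN and 11.65, 11.45, 10.9 and 11.2 in TAN, and rose 21.8-fold (SE 0.27, adjusted p = 9.3e-10). Il1a rose 20.1-fold (SE 0.25, adjusted p = 4.6e-10, above background in 6 of 7 NN) and Osm, oncostatin M, rose 8.94-fold (SE 0.11, adjusted p = 2.1e-12) from a high level in NN, 12.48 to 13.18 (median 12.74). Tnfsf13b, the B cell survival factor BAFF, fell by 1.84 (SE 0.12, adjusted p = 1.3e-09). Tgfb1 had 8.62, 8.79, 11.48 and 9.77 in TAN 1 to TAN 4 against 10.38 to 11.01 (median 10.72) in NN. It fell over all TAN (SE 0.39, adjusted p = 0.0271), though TAN 3 lay above every NN. Without TAN 1 or TAN 2, Tgfb1 differed by -0.70 or -0.76 and did not pass (adjusted p = 0.132 and 0.121), nor did it within the arrays of low background (adjusted p = 0.0647). Csf3, the growth factor of granulocytes, had 6.18 to 6.73 (median 6.56) in NN and 6.28, 6.85, 6.42 and 6.28 in TAN (1 of 4 above background) and did not pass. Of 22 cytokine receptors, 8 rose and 7 fell (36.4% and 31.8%, near the shares over all genes), with a median of 0.00. Il10ra rose by 3.39 (SE 0.3, adjusted p = 8.9e-08), and the receptor genes Tnfrsf1a and Il6ra fell, with differences of -3.08 (SE 0.23, adjusted p = 1.1e-08) and -2.63 (SE 0.32, adjusted p = 3.0e-06). Of 19 genes of cytokine signalling, 11 rose and 3 fell (median 0.56). The feedback inhibitors Cish and Socs3 had 7.21 to 7.51 (median 7.42) in NN and 13.35, 13.42, 12.61 and 13.22 in TAN, and 10.47 to 11.08 (median 10.66) in NN and 15.49, 15.38, 15.01 and 15.34 in TAN. Cish rose 53.6-fold (SE 0.22, adjusted p = 5.0e-12) and Socs3 rose 24.2-fold (SE 0.13, adjusted p = 2.0e-13).

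Genes induced within minutes to hours of a stimulus were higher in TAN. Of 26 immediate early and AP-1 genes, 23 rose and 0 fell (median 1.71), and 21 of the 23 did not overlap with NN. Over all genes this held for 2789 of the 4081 that rose. Egr1 had 8.63 to 11.72 (median 8.83) in NN and 15.57, 15.49, 15.72 and 15.5 in TAN and rose 62.3-fold (SE 0.48, adjusted p = 2.5e-08). The NN were spread over 3 log2 units for Egr1, and the TAN lay above all of them. Egr3, a relative of Egr1, had 6.43 to 6.71 (median 6.66) in NN and 6.81, 7.08, 6.61 and 6.65 in TAN and did not pass. Of 19 NF-κB subunits and feedback genes, 14 rose and 3 fell (median 1.75). Tnfaip3, the A20 inhibitor of NF-κB signalling, had 8.54 to 9.02 (median 8.82) in NN and 14.29, 14.06, 14.31 and 13.91 in TAN, and rose 40.2-fold (SE 0.26, adjusted p = 8.2e-11). Ier3 and Gadd45b, stress-induced survival genes, rose 28.6-fold (SE 0.12, adjusted p = 3.7e-14) and 19.6-fold (SE 0.2, adjusted p = 4.8e-11). Nfkbia, the inhibitor IκBα, had 11.61 to 12.85 (median 12.43) in NN and 11.9, 12.4, 15.6 and 13.42 in TAN. Over all TAN it did not pass, while in TAN 3 alone it was called higher, and TAN 1 and TAN 2 lay within the NN. Nfkbia passed without TAN 1 (1.5, adjusted p = 0.014) or TAN 2 (1.33, adjusted p = 0.0436). Of 19 MAP kinases and dual-specificity phosphatases, 7 rose and 6 fell (36.8% and 31.6%, near the shares over all genes, median 0.27). With the mean over all probes of a gene, 5 rose and 6 fell (median 0.02). Dusp16, a phosphatase that shuts off JNK, rose 13.1-fold (SE 0.16, adjusted p = 1.3e-11), and Mapk14, the p38α kinase, had 8.1, 8.06, 11.3 and 9.07 in TAN 1 to TAN 4 against 13.41 to 13.83 (median 13.61) in NN. Tumors were digested and marrow was flushed, so that for these genes the preparation and the population cannot be told apart.

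Antigen presentation genes of class II rose together. Of 14, 10 rose and 1 fell (median 2.95), and all 10 rose in both parts of the TAN. H2-Ab1, a chain of the class II molecule, had 10.74 to 11.85 (median 11.37) in NN and 15.73, 15.62, 15.65 and 15.9 in TAN, and rose 20.6-fold (SE 0.19, adjusted p = 1.4e-11). H2-DMa and H2-DMb1, which load peptides on class II, rose 21.5-fold (SE 0.24, adjusted p = 2.0e-10) and 26.9-fold (SE 0.16, adjusted p = 1.1e-12). H2-DMb2, a near copy of H2-DMb1, fell in TAN 1, 2 and 4 only, with 6.27, 6.28, 8.39 and 6.14 (1 of 4 above background) in TAN 1 to TAN 4 against 7.98 to 8.3 (median 8.07) in NN. Lgmn, the lysosomal protease legumain, had 8.93 to 9.82 (median 9.37) in NN and 8.39, 8.64, 13.34 and 10.21 in TAN. Over all TAN it did not pass, while in TAN 3 alone it was called higher. Of 12 genes of T cell costimulatory and inhibitory ligands, 9 rose and 1 fell (median 2.27), all 9 in both parts. Havcr2, which encodes TIM-3, had 6.12 to 6.61 (median 6.52) in NN and 10.33, 10.34, 10 and 10.77 in TAN, and rose 14.9-fold (SE 0.14, adjusted p = 2.7e-12, above background in 4 of 7 NN), and Cd83 rose 13.7-fold (SE 0.46, adjusted p = 2.7e-06). Lgals9, a ligand of TIM-3, had 7.71, 8.09, 12.33 and 9.26 against 11.72 to 12.03 (median 11.91) in NN. The list means of macrophage and class II genes were both highest in TAN 3, at 11.81 and 11.78, and their part in each other was not tested.

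Class I genes split the TAN. Of 18 genes of class I loading and the immunoproteasome, 9 rose and 5 fell (median 0.23), and 5 were called opposite ways in TAN 3 and the others. Without TAN 3, 8 rose and 9 fell (median -0.06). The list mean was 9.96 to 10.17 in NN and 9.85, 9.97, 11.51 and 10.17 in TAN 1 to TAN 4. H2-K1, the classical class I heavy chain, had 10.57 to 11.33 (median 11.11) in NN and 9.11, 9.16, 13.73 and 10.73 in TAN, and H2-T23, a nonclassical one, had 12.88 to 13.32 (median 13.06) in NN and 9.81, 10.17, 14.48 and 11.21 in TAN. H2-Q7 had 9, 9.3, 11.63 and 9.6 against 9.48 to 10.01 (median 9.75) in NN. TAN 3 lay above every NN for H2-K1, H2-T23 and H2-Q7, and TAN 1 and TAN 2 lay below every NN. Such genes belong to a family of near-identical copies, and another probe of H2-T23 was called the other way. Without TAN 3, H2-K1 and H2-Q7 passed as lower (-1.36 and -0.46, adjusted p = 3.89e-04 and 0.017). Over all TAN H2-T23 fell (SE 0.6, adjusted p = 0.0263, with 1 of its 2 probes called the other way), but did not pass without TAN 1 (adjusted p = 0.128), TAN 2 (0.114) or TAN 4 (0.0627). It also missed the threshold over the low-background arrays alone (adjusted p = 0.0918), with the replicate block (0.0588) and with the arrays scaled to the median of all probes (0.0512) or of the kept ones (0.0547). Nlrc5, the activator of class I genes, rose in all TAN, with 6.77 to 7.39 (median 6.84) in NN and 10.78, 10.6, 10.92 and 10.47 in TAN, by 13-fold (SE 0.2, adjusted p = 2.4e-10). Psmb10, an immunoproteasome subunit, rose 11.2-fold (SE 0.16, adjusted p = 3.3e-11), while Psme2, of the proteasome activator, had 6.13, 6.41, 9.98 and 6.17 (1 of 4 above background) against 8.97 to 9.61 (median 9.57) in NN. Of 27 interferon-stimulated genes, 20 rose and 1 fell (median 1.97), 19 of them in both parts. Oasl2, a relative of the oligoadenylate synthetases, had 9.33 to 10.04 (median 9.59) in NN and 13.24, 13.51, 13.35 and 12.98 in TAN, and the GTPase Mx2 had 6.36 to 6.72 (median 6.52) in NN and 10.26, 10.47, 9.91 and 9.52 in TAN. They rose 12.6-fold (SE 0.23, adjusted p = 1.2e-09) and 11.3-fold (SE 0.21, adjusted p = 6.4e-10, above background in 5 of 7 NN), and the guanylate-binding protein gene Gbp3 rose 12.1-fold (SE 0.21, adjusted p = 4.9e-10). Ifitm1 had 8.2, 7.98, 13.38 and 9.08 against 10.47 to 11.99 (median 11.42) in NN, and was called opposite ways. It passed as lower without TAN 3 (-2.95, adjusted p = 1.19e-07) or NN 6 (-1.87, adjusted p = 0.0483).

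Receptors for microbes and debris moved in both directions. Of 19 Toll-like receptors and adaptors, 12 rose and 5 fell (63.2% and 26.3%, against 36.8% and 26.2% over all genes, median 0.55), with rises of 3.06 (SE 0.14, adjusted p = 3.3e-11) for Tlr1 and 1.98 (SE 0.19, adjusted p = 1.7e-07) for Tlr4. Tlr13, a receptor for bacterial ribosomal RNA, had 9.12, 9.35, 12.68 and 11.06 in TAN 1 to TAN 4 against 12.43 to 12.77 (median 12.56) in NN. Of 15 Fc receptors and complement genes, 9 rose and 2 fell (median 1.53). Cfb, factor B of the alternative pathway, had no NN above background and rose at least 13.9-fold (adjusted p = 6.0e-12). C4b rose 13.4-fold (SE 0.13, adjusted p = 1.6e-12), and Fcgr1, the high-affinity IgG receptor, rose 12.6-fold (SE 0.21, adjusted p = 4.9e-10). C1qc, a chain of C1q, had 10.8 to 12.03 (median 11.48) in NN and 9.37, 9.8, 14.55 and 11.65 in TAN, so that TAN 3 lay above and TAN 1 and TAN 2 below every NN. Without TAN 3, C1qc passed as lower (-1.10, adjusted p = 0.0147). C5ar1, the receptor of the attractant C5a, fell by 2.1 (SE 0.44, adjusted p = 5.9e-04). Of 22 C-type lectin and TREM receptors, 11 rose and 6 fell (50% and 27.3%, median 0.41). Clec4n, the fungal receptor dectin-2, had 7.5 to 8.33 (median 8.07) in NN and 13.33, 13.5, 13.4 and 13.7 in TAN, and Trem2, a lipid-sensing receptor of macrophages, had 7.02 to 7.36 (median 7.09) in NN and 12.29, 12.41, 12.17 and 12.39 in TAN. They rose 47.5-fold (SE 0.16, adjusted p = 1.6e-13) and 35.9-fold (SE 0.12, adjusted p = 1.5e-14). Tyrobp, the adaptor of TREM receptors, had 13.73 to 14.03 (median 13.78) in NN and 13.91, 13.99, 13.52 and 13.97 in TAN and did not pass. Of 22 integrins and adhesion receptors, 8 rose and 8 fell (36.4% each, median -0.06, or 0.24 when scaled to the kept probes). Icam1 rose 8.21-fold (SE 0.39, adjusted p = 4.8e-06), with 10.18, 10.45, 13.15 and 11.65 in TAN 1 to TAN 4 and TAN 3 the highest.

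Among genes that remodel tissue, the lists differed. Of 19 matrix proteases and inhibitors, 12 rose and 4 fell (63.2% and 21.1%, against 36.8% and 26.2% over all genes, median 0.58). Mmp12, the macrophage elastase, had no NN above background and rose at least 67.1-fold (adjusted p = 3.5e-13), with 12.39, 12.74, 12.2 and 12.82 in TAN 1 to TAN 4. Mmp13, a collagenase, had 7.07 to 7.87 (median 7.37) in NN and 12.65, 13.43, 13.02 and 13.4 in TAN, and rose 53.1-fold (SE 0.18, adjusted p = 4.5e-13). Mmp14, a membrane-bound protease that activates others, rose 36.3-fold (SE 0.15, adjusted p = 2.0e-13). Timp3, an inhibitor of matrix proteases, was below background in all TAN and fell at least 5.64-fold (adjusted p = 1.2e-09). Of 15 genes of plasminogen activation and coagulation, 6 rose and 3 fell (40% and 20%, near the shares over all genes, median 0.2). F10, coagulation factor X, and S100a10, which binds plasminogen with annexin A2, rose 11.5-fold (SE 0.21, adjusted p = 8.4e-10) and 11.2-fold (SE 0.21, adjusted p = 7.4e-10). Of 23 genes of the TGF-beta pathway, 13 rose and 3 fell (median 0.4). Tgif1, a corepressor of SMAD proteins, had 6.69 to 7.45 (median 6.95) in NN and 12.36, 12.51, 12.55 and 12.7 in TAN, and rose 45.4-fold (SE 0.35, adjusted p = 1.4e-09). The receptor genes Tgfbr1 and Tgfbr2 had 11.58 to 12.33 (median 11.77) and 12 to 12.39 (median 12.21) in NN, 11.67, 11.75, 11.83 and 12.17 and 11.87, 11.93, 12.71 and 12.83 in TAN, and did not pass. Of 15 S100, annexin and formyl peptide receptor genes, 5 rose and 5 fell (median -0.17, or 0.15 when scaled to the kept probes), with Anxa1, a brake on neutrophil influx, at 13.7 to 14.31 (median 13.82) in NN and 10.27, 10.66, 10.83 and 10.25 in TAN. It fell by 3.38 (SE 0.14, adjusted p = 9.6e-12).

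Genes induced by low oxygen were mostly higher. Of 20 hypoxia-induced and angiogenic genes, 14 rose and 3 fell (median 0.85). Slc2a1, the glucose transporter GLUT1, had 10.58 to 10.91 (median 10.76) in NN and 15.16, 15.14, 14.67 and 14.89 in TAN, and rose 18.4-fold (SE 0.14, adjusted p = 7.9e-13). Egln3, an oxygen sensor that is itself induced by low oxygen, had 8.73 to 9.12 (median 8.91) in NN and 12.79, 13.08, 12.49 and 13 in TAN, and rose 15.3-fold (SE 0.11, adjusted p = 1.9e-13). Slc2a3, the glucose transporter GLUT3, fell by 1.39 (SE 0.11, adjusted p = 1.2e-08), from 14.27 to 14.44 (median 14.37) to 13.25, 13.03, 12.62 and 12.93. Hif1a itself had 6.87 to 8.33 (median 7.37) in NN and 7.63, 7.53, 7.21 and 7.66 in TAN and did not pass. Of 17 genes of glycolysis, 8 rose and 5 fell (47.1% and 29.4%, median 0.34). Pfkl, liver-type phosphofructokinase, had 8.95 to 9.38 (median 9.1) in NN and 12.1, 12.23, 12.28 and 12.3 in TAN, and rose 8.6-fold (SE 0.1, adjusted p = 4.8e-13), and Tpi1 rose 5.74-fold (SE 0.08, adjusted p = 8.7e-13, with 1 of its 3 probes called the other way). Gapdh, a step of glycolysis often used as a reference gene, had 15.45 to 15.61 (median 15.57) in NN and 15.61, 15.71, 15.45 and 15.83 in TAN and did not pass. Hk1 fell by 2.83 (SE 0.25, adjusted p = 7.3e-08, above background in 1 of 4 TAN). Of 21 solute carriers, 13 rose and 6 fell (median 0.96). Slc7a11, the cystine importer, rose 5.3-fold (SE 0.13, adjusted p = 2.0e-10), and Slc38a5, a glutamine transporter, was below background in all TAN and fell at least 22.1-fold (adjusted p = 1.6e-13).

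Metabolic genes of inflammation moved in both directions. Of 12 genes of arginine, nitric oxide and polyamine metabolism, 6 rose and 4 fell (50% and 33.3%, median 0.39). Arg1, the cytosolic arginase, had no NN above background and 12.3, 12.47, 14.06 and 13.33 in TAN 1 to TAN 4, a rise of at least 95-fold (adjusted p = 1.9e-12). Ass1, which remakes arginine from citrulline, rose 10.8-fold (SE 0.24, adjusted p = 4.2e-09). Nos2, inducible nitric oxide synthase, had 6.25 to 6.71 (median 6.5) in NN and 6.33, 6.76, 6.92 and 6.34 (2 of 4 above background) in TAN and did not pass. Of 16 lipid genes, 8 rose and 3 fell (50% and 18.8%, median 0.27). Ch25h, which makes 25-hydroxycholesterol, had no NN above background and 12.43, 12.57, 12.8 and 12.56 in TAN, a rise of at least 69.5-fold (adjusted p = 1.4e-16). Apoe rose 6.28-fold (SE 0.39, adjusted p = 2.0e-05), with 10.94, 11.54, 13.65 and 12.7 and TAN 3 the highest. Plin2, a coat protein of lipid droplets like Hilpda, had 6.96, 7, 10.96 and 7.72 against 9.93 to 10.41 (median 10.19) in NN and was called opposite ways. Of 15 prostaglandin and leukotriene genes, 5 rose and 6 fell (33.3% and 40%, median -0.19). Ptgs2, cyclooxygenase 2, had no NN above background and rose at least 10.8-fold (adjusted p = 1.3e-10), and Hpgd, which degrades prostaglandins, was below background in all TAN and fell at least 3.53-fold (adjusted p = 7.1e-09). Of 21 antioxidant genes, 10 rose and 7 fell (47.6% and 33.3%, median 0.3). Sod2, mitochondrial superoxide dismutase, rose 7.08-fold (SE 0.15, adjusted p = 2.8e-10), and Cat, catalase, fell by 2.9 (SE 0.28, adjusted p = 2.5e-07). Of 19 genes of iron, heme and metallothioneins, 10 rose and 7 fell (52.6% and 36.8%). Their median was 0.63, or -0.11 with the mean over all probes of a gene. Mt1, a metallothionein, had 10.62 to 11.34 (median 10.77) in NN and 15.38, 15.25, 13.92 and 15.62 in TAN, and rose 17.1-fold (SE 0.34, adjusted p = 3.4e-08). Fth1, the ferritin heavy chain, had 15.66 to 15.81 (median 15.76) in NN and 15.62, 15.68, 15.68 and 15.61 in TAN and did not pass.

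Lysosomal and protein-folding genes rose. Of 27 lysosomal genes, 19 rose and 1 fell (median 0.79), 16 of them in both parts of the TAN. Ctsk and Ctsz, cathepsins K and Z, had 7.5 to 8.4 (median 7.78) in NN and 12.6, 12.59, 12.4 and 12.98 in TAN, and 9.47 to 9.86 (median 9.76) in NN and 13.6, 13.76, 13.47 and 14.06 in TAN. They rose 27.4-fold (SE 0.17, adjusted p = 2.0e-12) and 16.1-fold (SE 0.13, adjusted p = 5.0e-13). Lamp2 and Atp6ap1 did not pass, with 14.44, 14.19, 14.12 and 14.11 and 13.81, 13.87, 13.64 and 13.7 in TAN. The macrophage markers, which include Ctsk, averaged 8.71 to 9.32 in NN and 10.56 to 11.81 in TAN, and their part in the rise of lysosomal genes was not tested. Of 22 genes of endoplasmic reticulum stress and heat shock, 16 rose and 1 fell (median 0.97). Hspa1a, an inducible heat shock protein 70, had no NN above background and 12.02, 11.86, 12.52 and 13.12 in TAN 1 to TAN 4, a rise of at least 60-fold (adjusted p = 1.2e-10). Chac1, induced by the unfolded protein response, rose 6.26-fold (SE 0.17, adjusted p = 2.1e-09). Of 21 autophagy and ubiquitin genes, 11 fell and 4 rose (median -0.42). Wipi1, which marks early autophagic membranes, fell by 2.09 (SE 0.25, adjusted p = 2.7e-06).

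Genes of cell division fell. Of 31, 23 fell and 2 rose (median -0.88), 17 of the 23 in both parts of the TAN. Top2a, topoisomerase II alpha, had 10.64 to 11.22 (median 10.88) in NN and 6.22, 6.25, 8.27 and 6.53 in TAN, and fell by 4.08 (SE 0.29, adjusted p = 6.6e-09, above background in 2 of 4 TAN). Cdk1, the kinase of mitosis, and Kif11, a spindle motor, fell, with differences of -3.36 (SE 0.31, adjusted p = 1.4e-07, above background in 2 of 4 TAN) and -2.47 (SE 0.11, adjusted p = 1.6e-11, above background in 1 of 4 TAN). The D-type cyclin genes Ccnd1 and Ccnd2 rose, by 4.3 (SE 0.2, adjusted p = 3.3e-11) and 1.91 (SE 0.19, adjusted p = 3.8e-07), with 7.09 to 7.76 (median 7.49) in NN and 11.83, 11.74, 11.45 and 12.02 in TAN for Ccnd1. Mcm4, of the replicative helicase, had 11.4 to 12.08 (median 11.47) in NN and 11.74, 11.67, 11.1 and 12 in TAN and did not pass. Of 19 growth arrest genes, 11 rose and 4 fell (median 0.43). Plk3, a stress-induced kinase, had 8.36 to 8.7 (median 8.65) in NN and 13.67, 13.59, 13.13 and 13.47 in TAN, and rose 29.8-fold (SE 0.22, adjusted p = 2.3e-11), beside Cdkn1a above. Of 14 genes of the BCL2 family, 6 rose and 4 fell (42.9% and 28.6%, median 0.41, or -0.05 with array weights). Bcl2a1c and Bcl2a1d, from a family of near-identical survival genes, had 9.29, 9.38, 11.21 and 9.34 and 8.7, 8.78, 10.82 and 8.71 in TAN, with TAN 3 the highest. They rose 7.91-fold (SE 0.29, adjusted p = 1.9e-07) and 6.16-fold (SE 0.3, adjusted p = 1.6e-06). Bcl2l1, which encodes BCL-XL, fell by 2.63 (SE 0.3, adjusted p = 1.4e-06, with 2 of its 3 probes called the other way), and Bnip3l, a mediator of mitochondrial removal in red cells, fell by 1.36 (SE 0.1, adjusted p = 1.4e-08). Dividing red cell precursors are among the cells of marrow. The mean over the 12 erythroid markers was 11.33 to 11.78 in NN and 7.12 to 7.43 in TAN, and the part of such cells in the fall of division genes was not tested.

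Genes of protein synthesis and energy were set against the 36.8% of all genes that rose and the 26.2% that fell. Of 31 ribosomal protein genes, 19 rose and 4 fell (61.3% and 12.9%, median 0.57), with 9 of the 19 called in both parts. Rpl19 had 10.22 to 10.84 (median 10.43) in NN and 12.9, 12.75, 12.09 and 12.83 in TAN, and rose by 2.18 (SE 0.18, adjusted p = 3.8e-08), and Rpl12 and Rps19 rose by 2.07 (SE 0.27, adjusted p = 6.1e-06) and 1.86 (SE 0.25, adjusted p = 6.9e-06). The 4 that fell included Rps7, Rps6 and Rps2, where TAN 3 lay above the NN median. Of 25 translation factors and tRNA synthetases, 15 rose and 6 fell (60% and 24%, median 0.84). Sars and Vars, which charge tRNA with serine and valine, rose by 2.27 (SE 0.24, adjusted p = 6.7e-07, with 1 of its 2 probes called the other way) and 2.31 (SE 0.31, adjusted p = 7.1e-06, with 1 of its 3 probes called the other way). Eif1a rose by 1.98 (SE 0.13, adjusted p = 3.1e-09) and Eif3c fell by 2.57 (SE 0.28, adjusted p = 8.9e-07, above background in 1 of 4 TAN). Of 28 proteasome subunits, 14 rose and 6 fell (50% and 21.4%, median 0.23), with 4 and 1 of these called in both parts and 5 of the 28 with a probe called the other way. Psmb1, with 8.93 to 9.58 (median 9.41) in NN and 12.41, 12.36, 12.05 and 12.54 in TAN, rose by 2.99 (SE 0.13, adjusted p = 1.7e-11). Of 37 genes of the respiratory chain, 18 rose and 8 fell (48.6% and 21.6%, median 0.35), with 5 and 3 called in both parts. Atp5g1, of ATP synthase, rose by 2 (SE 0.16, adjusted p = 3.2e-08) and Cox6a1, of cytochrome oxidase, fell by 1.37 (SE 0.19, adjusted p = 9.8e-06). Of 28 splicing genes, 8 rose and 11 fell (median 0.04, or -0.11 with the mean over all probes of a gene). Srsf5 had 7.96, 7.75, 10.2 and 7.87 in TAN against 11.49 to 12.22 (median 12.01) in NN, and Snrpd2 rose by 1.21 (SE 0.17, adjusted p = 1.4e-05).

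Markers of other cells moved on both sides. Of 21 macrophage markers, 14 rose and 0 fell (median 2.39), 13 of them in both parts of the TAN. Another 2 were called opposite ways in TAN 3 and the others. Without TAN 3, 14 rose and 3 fell (median 2.17). Besides Dab2 and Trem2, Ctsk rose 27.4-fold. C1qb, a chain of C1q, had 10.56 to 11.98 (median 11.39) in NN and 13.43, 13.84, 14.66 and 14.29 in TAN, and Adgre1, which encodes F4/80, had 9.43 to 10.08 (median 9.71) in NN and 12.01, 12.26, 12.08 and 11.95 in TAN. They rose 6.82-fold (SE 0.24, adjusted p = 5.8e-08) and 5.22-fold (SE 0.12, adjusted p = 1.2e-10). The 4 TAN were above every NN for both genes. C1qc, another chain of C1q, passed as lower without TAN 3 (-1.1, adjusted p = 0.0147). None of the 21 was below background in every array of a group. Of 10 monocyte markers, 8 rose and 1 fell (median 2.85), with list means of 7.89 to 8.21 in the NN and 9.41 to 10.5 in the TAN. Ms4a6d had 7.95 to 8.59 (median 8.24) in NN and 12.3, 12.58, 13.92 and 13.34 in TAN, and rose 27.7-fold (SE 0.32, adjusted p = 2.6e-09), while Ly6c1 had 8.08, 8.32, 12.16 and 9.44 against 14.75 to 15.06 (median 14.99) in NN. Of 15 dendritic cell markers, 9 rose and 1 fell (median 0.62). Batf3 rose 5.13-fold (SE 0.18, adjusted p = 1.2e-08, above background in 4 of 7 NN). Of 10 mesothelial and epithelial tumor markers, 6 rose and 2 fell (median 1.75). The keratin genes Krt8 and Krt18 had 6.19 to 7.13 (median 6.91) in NN and 11.57, 11.4, 10.83 and 11.73 in TAN, and 6.19 to 6.68 (median 6.53) in NN and 10.3, 9.94, 8.98 and 10.4 in TAN. They rose 24.5-fold (SE 0.18, adjusted p = 5.3e-12, above background in 6 of 7 NN) and 10.7-fold (SE 0.21, adjusted p = 1.2e-09, above background in 4 of 7 NN), and Pdpn, podoplanin, rose 11.7-fold (SE 0.19, adjusted p = 2.6e-10). The list means were 6.87 to 7.07 in the NN and 8.67, 8.52, 8.11 and 8.7 in TAN 1 to TAN 4, the lowest in TAN 3. Upk3b, a mesothelial surface protein named here after its values were seen, was below background in all TAN and above it in 1 of 7 NN. Of 13 fibroblast markers, 7 rose and 3 fell (median 0.67), with list means of 7.44 to 7.87 in the NN and 7.79 to 8.07 in the TAN. The part of macrophages, tumor cells or fibroblasts in the rises was not tested.

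**Figure D5:**
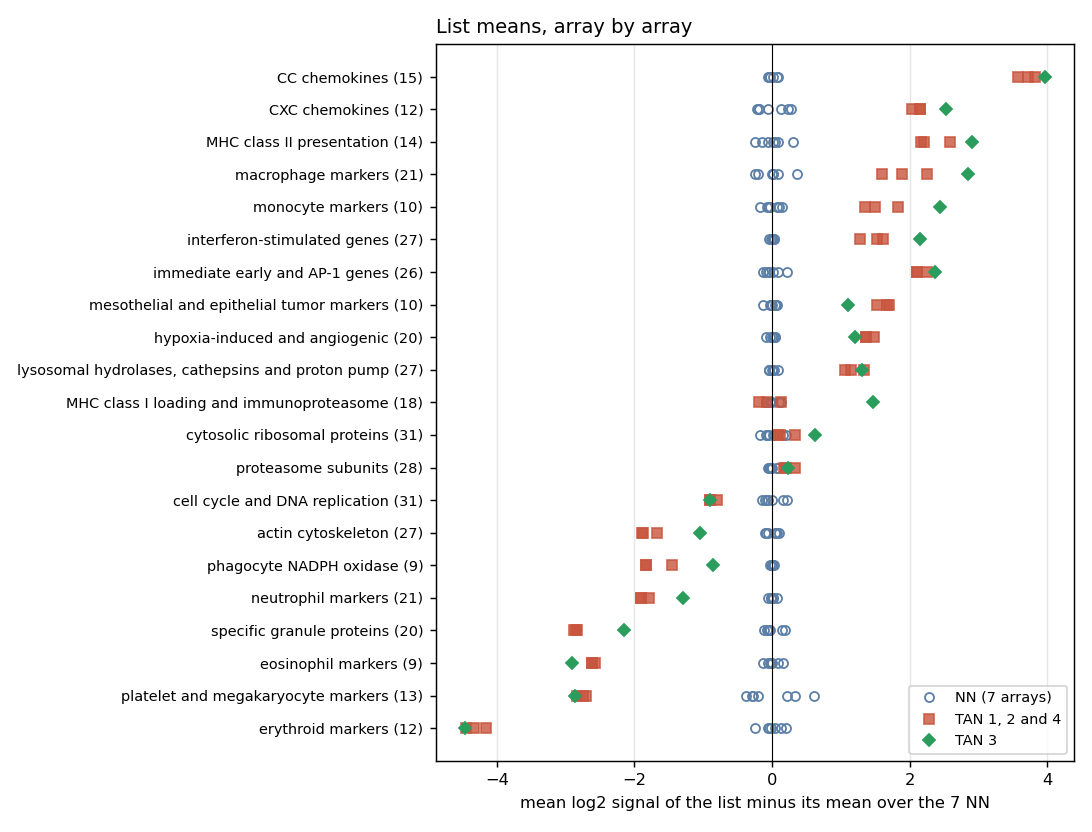
Mean log2 signal of the members of 21 lists in each array, minus the mean over the 7 NN (horizontal axis), with open circles for NN, red squares for TAN 1, 2 and 4 and green diamonds for TAN 3. CC chemokines lie over 3 log2 units above the NN in every TAN and erythroid markers over 4 below, while class I genes stand well above the NN in TAN 3 only.

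Markers of several other marrow lineages were lower, while those of T and NK cells as a list were not. All 12 erythroid markers fell (median -4.28), led by Slc4a1, the anion exchanger of red cells, which had 14.68 to 14.99 (median 14.91) in NN, was below background in all TAN and fell at least 323-fold (adjusted p = 6.6e-16). Of 13 platelet and megakaryocyte markers, 10 fell and 0 rose (median -3.52), with list means of 10.38 to 11.37 in the NN and 7.9 to 8.05 in the TAN. Gp5, a platelet receptor, fell by 4.59 (SE 0.16, adjusted p = 2.0e-12, above background in 2 of 4 TAN). Of 9 eosinophil markers, 8 fell and 1 rose (median -2.78), with list means of 9.2 to 9.5 in the NN and 6.43 to 6.76 in the TAN. Ear6, an eosinophil ribonuclease, was below background in all TAN and fell at least 39.5-fold (adjusted p = 4.9e-10). Of 11 B cell markers, 6 fell and 0 rose (median -1.98). Vpreb3, a gene of B cell precursors, had 9.43 to 10.97 (median 9.67) in NN and fell at least 11-fold (adjusted p = 7.4e-06), and Cd79a fell by 3.28 (SE 0.68, adjusted p = 5.8e-04). Of 17 T and NK cell markers, 3 rose, 2 fell and 12 did not pass (17.6% higher and 11.8% lower, median 0.07). Prf1, Klrd1 and Thy1 rose, and Cd3d and Nkg7 fell. Cd3d had 13.46 to 13.74 (median 13.6) in NN and 11.81, 11.36, 10.09 and 11.01 in TAN, and fell by 2.54 (SE 0.22, adjusted p = 5.2e-08). Of 13 endothelial markers, 9 fell and 1 rose (median -0.88), and of 11 stem and progenitor markers 4 fell and 0 rose (median -0.14). Of 8 mast cell and basophil markers, 4 fell and 2 rose (median -0.38). The part of such cells in the falls of other genes was not tested.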

How the data were processed

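RNA of 15 arrays was biotin-labelled and hybridized to Illumina Mouse Ref-8 v2 chips. The deposited values of each array are raw intensity values per probe exported from BeadStudio, with no normalization by the authors. The series also holds a table of linear intensity values that the authors quantile normalized and filtered, with 16322 of the 25697 probes and a median of 190 in every column, which gave the kept probes and an alternative. By the methods, negative control probes set the background to subtract, and probes with a detection p-value above 0.05 in every sample were removed.

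The intensities were corrected with normexp (offset 50) and quantile normalized over all probes and arrays with limma 3.58.1 in R 4.3.3. The offset understates the folds of dim probes. Of the 16322 probes, 6 that varied by less than 1.2-fold were left out. Linear models with moderated variances (lmFit and eBayes) were fitted over all 15 arrays, so that the splenic neutrophils shared the estimate of the spread, with Benjamini-Hochberg adjustment over 16316 probes. A second model gave TAN 3 its own mean. By the methods the samples of a group were prepared independently, each a pool of mice, so the p-values measure the spread between these pools and not between single mice. No column of values was left unmapped. On simulated data with 200 changed probes among 16316, 75.5%, 97% and 99.5% were recovered at log2 changes of 1, 2 and 4, with 10, 9 and 7 false calls.

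Of the kept probes, 15321 had one gene symbol in the platform annotation and 995 had none. A gene was above background on an array where its signal exceeded the 95th percentile of the 9375 probes left out of the authors' table. Where every array of a group was below it, the fold is a lower bound against the lowest signal above background, or the dim probe's own where that was higher.

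The genes named were the 15 largest rises and falls shared by all TAN without overlap, the 10 genes with TAN 3 farthest above and below the other TAN, up to 3 rises, 3 falls and 2 uncalled members of each list, and the cell markers called. The 15 rises and falls were ranked only among genes above background in some array of each group. Members and lists were chosen with earlier results of these data known. The 63 lists were not tested as sets. Alternatives changed the background correction, the scaling, the probe filter, the arrays in the fit, array weights, the background level or replicate number as a block, and left out each array in turn. The scaling to the kept probes, the fit without the block on the replicate-numbered arrays and the fits without each G-MDSC array were chosen after seeing the data. Tables and figures were made with Python 3.11.15, pandas 2.3.3, scipy 1.17.1 and matplotlib 3.10.9, and promoter windows came from RefSeq (GRCm38.p6).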

Additional observations from a re-analysis of the deposited data

Results flagged for a closer look

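For each gene named and each list mean, the highest or lowest array of a group was compared with its nearest neighbour, as the gap divided by the range of the group. Of 584 groups tested, 61 had an array that stood apart, and chance flags about 1 in 20 groups. TAN 3 was the array in 44 of them, high in 28 and low in 16. Of these 44, 13 are among the 20 genes that were named because TAN 3 lay far from the other TAN, and 31 are not, so the count of 44 is not one to set against chance. The values that follow are these ratios, where 1 means that the others were equal. TAN 3 stood above the other TAN in Bcl2a1c (0.95), Bcl2a1d (0.963), Gpx1 (0.957), H2-DMb2 (0.939), H2az1 (0.904), Hk1 (0.980), Itgam (0.911), Itgb2 (0.833), Lcp1 (0.899), Ltb (0.962), Ngp (0.859), Psme2 (0.928), Rabac1 (0.852), Rpl7a (0.973), Rps2 (0.985), Rps6 (0.964), Rps7 (0.862), Srsf5 (0.914), Tlr1 (0.839), Tlr4 (0.868), Top2a (0.847), Trem1 (0.854), Trf (0.922) and Tuba1a (0.957). It stood below them in 4930519G04Rik (0.857), Batf3 (0.885), Bola2 (0.928), Ccl17 (0.871), Eif1a (0.956), F10 (0.931), H4f16 (0.923), Ier3 (0.905), Rpl12 (0.865), Rps19 (0.879), Snrpd2 (0.954), Tpi1 (0.952) and Vars (0.9). The mean of TAN 3 was the higher one for the lists of specific granule proteins (0.932), inflammatory cytokines (0.844), the BCL2 family (0.848) and plasminogen activation and coagulation (0.864). It was the lower one for eosinophil markers (0.848), fibroblast markers (0.857) and all genes (1).

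Among the other TAN, TAN 4 stood below the rest for Ctsc (0.91) and Srgn (0.866) and above for the mean of cell cycle genes (0.909), and TAN 1 above for Cd79a (0.929). Among the NN, NN 4 stood apart most often, high for Bnip3l (0.629), Cd14 (0.637), Clec4d (0.616) and the share of genes with probes over 4-fold apart (1), and low for Cebpe (0.582). NN 5 was low for Ccl12 (0.615) and Gapdh (0.69), NN 6 for Cxcr4 (0.625) and Havcr2 (0.62), NN 2 for Ccl6 (0.573) and NN 3 for Ccl8 (0.624). NN 7 was high for Anxa1 (0.618) and NN 3 for Il6ra (0.614).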

How the results depend on the processing

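The counts of probes higher and lower in TAN stayed within 1.5 times the main ones (5331 and 4742) under every alternative that was run. They ranged from 4492 to 6426 higher and from 3767 to 5363 lower. Leaving out 1 array gave 4776 to 5925 higher and 4400 to 4965 lower, both highest without TAN 3. The genes called alike in both parts of the TAN numbered 3754, 3639 to 4091 when 1 array was left out, and 2976 to 4332 over the other alternatives. TAN 3 cannot be left out of that count. Scaling each array to the median of the kept probes shifted the median gene from 0.12 to 0.28 and the share of calls that were higher from 58.5% to 67.4%.

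TAN and NN share replicate numbers. Deviations of equal numbers from their group means correlated at 0.0927, 0.0671, 0.266 and -0.0272 for numbers 1 to 4. Unlike numbers were not compared, so whether arrays of equal number belong together was not tested. With the number as a replicate block, over the arrays numbered 1 to 4, 4592 probes were higher and 4245 lower, against 4621 and 4237 over the same arrays without the block.

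Of 227 genes named, 199 were called, and 193 of these were called in every alternative run for single genes. The mean over all probes of a gene was used for the lists only. Named genes with a probe called the other way were therefore not tried under it. The exceptions were Cxcr2, Cxcr4 and Retnlg under scaling to the kept probes, and H2-T23, Tgfb1 and Trem1 as given with them. For each of the 63 lists the median was recomputed under 13 alternatives. Of these 819 medians, 11 in 7 lists changed sign and 75 others moved by 0.25 or more. The median of class I genes, 0.23, became -0.04 with array weights and -0.06 without TAN 3. That of the BCL2 family, 0.41, became -0.05 with array weights. Iron and heme genes went from 0.63 to -0.11 and splicing genes from 0.04 to -0.11 with the mean over all probes of a gene. Splicing genes also went to -0.01 with dim probes left out and to -0.03 with arrays scaled to their median, where adhesion receptors went from -0.06 to 0.04. Under scaling to the kept probes, adhesion receptors had 0.24, S100 proteins 0.15 instead of -0.17, and stem and progenitor markers 0.01 instead of -0.14. The balance of rises and falls changed direction under some of these 13 for chemokine receptors, cytokine receptors, class I genes, adhesion receptors, prostaglandin enzymes, MAP kinases, splicing genes, S100 proteins and T and NK cell markers. The mean share of genes with probes over 4-fold apart, 16.9% in TAN against 0.00967% in NN, became 39.1% against 0.551% at over 2-fold and 17.3% against 0.0103% with dim probes left out. Genes with a single probe, and those near background in either group, are the least certain.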
